A study of Mus musculus with 75 samples.

Results

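The 10 genes described here make, mature, cross-link and remodel the extracellular matrix of white adipose tissue: Lox, Loxl1, Loxl2, Loxl3, Postn, Fbn1, P4ha1, Mmp2, Timp1 and Tgfb1. They were taken by symbol, with no measured value in the rule, from 21625 genes listed in both the chow and the high-fat-diet (HFD) count table. Earlier results of these data were known when they were chosen. All 10 passed the filter on low counts in each tissue. The series sequenced total RNA in 75 libraries from mice that combine the nuclear genome (n) and the mitochondrial genome (mt) of C57BL6/J and C3H/HeN. C57n:C57mt and C3Hn:C3Hmt are the parental combinations, and C57n:C3Hmt and C3Hn:C57mt are Mitochondrial-Nuclear eXchange (MNX) combinations. Every mouse was weaned onto chow. From 6 weeks of age mice stayed on chow or ate HFD, and both diets ended at 12 to 13 weeks. Epididymal fat (eWAT, a visceral depot) gave 15 chow and 14 HFD libraries, and inguinal fat (iWAT, a subcutaneous depot) gave 16 and 14. Gastrocnemius skeletal muscle, called muscle below, gave 16 on chow only. The 20 groups hold 3 or 4 animals each, and 20 animals gave both fat depots.

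Lysyl oxidases oxidise lysines in collagen and elastin, which starts the covalent cross-links that stiffen fibres. Prolyl 4-hydroxylase acts earlier, inside the cell, and lets the collagen triple helix hold. Fibrillin microfibrils and periostin organise the fibres outside the cell, metalloproteinases cut them, tissue inhibitors of metalloproteinases restrain the cutting, and TGF-beta is a classical inducer of many of these genes. Several of them are commonly measured when fibrosis of fat is studied.

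In the table of promoters from RefSeq (mouse build GRCm38.p6), 5 of the 10 genes matched, with 6 entries. Lox, also called higher on HFD in both fat depots, was left out of this search. Those of Postn, Fbn1 and Timp1, with higher RNA on HFD in both fat depots, are shown. Each is the 250 bases before a transcription start, read 5′ to 3′ on the gene's strand. Capitals mark motif matches that a search of both strands found.
Postn promoter 1 (chr3:54359017-54359266, plus strand): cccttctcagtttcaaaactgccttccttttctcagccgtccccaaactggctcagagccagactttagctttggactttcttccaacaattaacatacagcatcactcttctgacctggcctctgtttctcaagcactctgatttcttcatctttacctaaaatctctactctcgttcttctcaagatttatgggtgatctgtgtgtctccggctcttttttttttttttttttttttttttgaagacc
Postn promoter 2 (chr3:54360857-54361106, plus strand): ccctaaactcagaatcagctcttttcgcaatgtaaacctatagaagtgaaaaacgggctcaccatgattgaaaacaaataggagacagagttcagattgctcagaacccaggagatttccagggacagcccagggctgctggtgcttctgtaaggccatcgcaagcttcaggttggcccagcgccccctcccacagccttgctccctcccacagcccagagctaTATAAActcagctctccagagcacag
Fbn1 (chr2:125506439-125506688, minus strand): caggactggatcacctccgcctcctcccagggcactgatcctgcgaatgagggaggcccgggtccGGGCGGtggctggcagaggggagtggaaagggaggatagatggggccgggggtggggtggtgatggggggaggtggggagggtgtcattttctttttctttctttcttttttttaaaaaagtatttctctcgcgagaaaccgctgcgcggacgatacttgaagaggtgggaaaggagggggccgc
Timp1 (chrX:20869916-20870165, plus strand): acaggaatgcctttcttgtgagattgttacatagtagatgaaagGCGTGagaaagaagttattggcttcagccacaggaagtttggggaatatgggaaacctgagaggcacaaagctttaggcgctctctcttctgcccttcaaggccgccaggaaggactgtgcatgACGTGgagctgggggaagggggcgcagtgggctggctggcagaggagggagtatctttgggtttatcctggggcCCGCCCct
These motifs were searched: the hypoxia cores ACGTG and GCGTG, the Smad box CAGACA, the AP-1 site TGANTCA, the TATA box TATAAA and the GC box GGGCGG. Postn promoter 2 held 1 TATAAA, 26 bases before the start, and Postn promoter 1 held none of the motifs. Fbn1 held 1 GC box, 185 bases before its start. Timp1 held 1 GCGTG at 206 bases, 1 ACGTG at 82 bases and 1 GC box at 8 bases, the last on the opposite strand. Among 32851 windows of 250 bases, 12.4% held TATAAA, 32.7% a GC box, 28.2% GCGTG and 16.6% ACGTG, and no member shown held CAGACA or TGANTCA. A match describes letters only, and no motif was found in all 3 genes.

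Total counts per library ran from 15747683 to 31477366, and the members' own counts from 10 (Timp1 in muscle) to 23469 (Fbn1 in eWAT on HFD). Levels are given as CPM, the usual unit of counts scaled to library size (TMM factors). Adipocyte markers, 9 of 10 in the tables, summed to between 4751 and 41505 CPM in fat and to at most 1453 CPM in muscle, where the 10 muscle markers summed to at least 356505 CPM. In eWAT, 6 of the 29 libraries had a mean above 3 (log2 CPM) over the markers of epididymal epithelium, and are called here the libraries with epithelial RNA. They are replicates 2 and 4 of C3Hn:C57mt on chow, 3 of C57n:C57mt on chow, 1 and 4 of C57n:C3Hmt on chow, and 1 of C3Hn:C3Hmt on HFD. Replicate 1 of C57n:C57mt on chow, at 2.65, lay just under that limit and is not among them. In iWAT, lymphocyte markers ranged from 7.55 to 2964 CPM, highest in C3Hn:C3Hmt HFD replicate 3, and muscle markers from 9.07 to 20314 CPM. Each sample title opens with a code and holds an L number, which are taken here as sequencing run and lane. The titles do not say what these parts stand for. All 47 chow libraries shared 1 such run and the 28 HFD libraries had others, so diet and run cannot be told apart. On chow the nuclear genomes of a tissue ran in separate lanes, apart from 1 eWAT library, and there nuclear genome and lane cannot be told apart.

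Ranked by CPM per kilobase of the longest coding transcript, Postn, which encodes periostin, led the members in eWAT on chow at 46.4 CPM per kb (mean of 15 libraries). That transcript of Postn has 3202 bases and all its annotated exons together 7838, so its values and rank depend on this choice of length. Mmp2 at 23.8, Fbn1 at 22.6 and Tgfb1 at 22.0 CPM per kb came next, close together against their spread. On HFD the order in eWAT became Postn at 112, Fbn1 at 48.8, Mmp2 at 39.8 and Timp1 at 34.5 CPM per kb. The Timp1 mean on chow was 9.11 CPM per kb, but its medians were lower, at 3.85 on chow and 16.2 on HFD. By medians Loxl1 (22.6), Tgfb1 (20.3) and Lox (17.5 CPM per kb) lay above Timp1 in eWAT on HFD. In iWAT, Mmp2 and Postn held the first 2 places on either diet, at 59.97 and 41.9 CPM per kb on chow and 66.5 and 71.7 on HFD. Lox came next in iWAT on HFD, at 28.6 CPM per kb. In muscle Mmp2 led at 33.4 CPM per kb, P4ha1 followed at 16.4, and the others lay at or below 8.38. Loxl3 was last in every tissue and diet, at 1.28 to 2.58 CPM per kb.

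**Figure D1:**
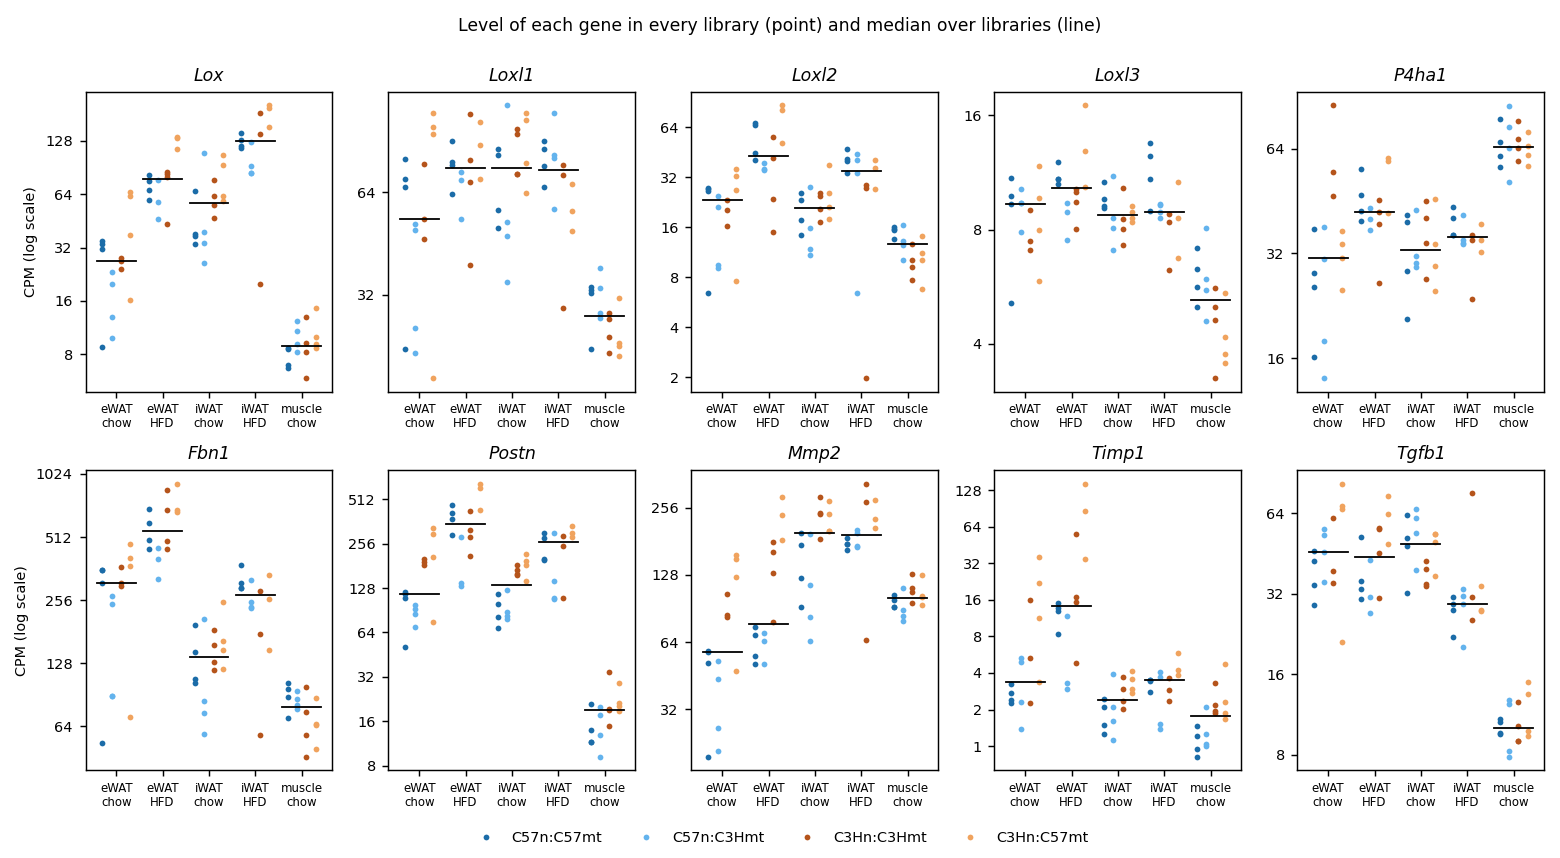
Level of each of the 10 genes in every library, in CPM on a log axis, by tissue and diet; each point is 1 library coloured by genotype, and lines are medians. Lox rises from medians of 26.9 to 78.2 CPM in eWAT and 57.1 to 128 CPM in iWAT between chow and HFD, while Timp1 spreads widely in eWAT and stays below 6 CPM in iWAT.

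In eWAT, HFD was accompanied by more RNA of 8 of the 10 genes when the diet effect was averaged over the 4 genotypes, and by less of none. The largest differences were in Timp1, Lox, Postn and Loxl2. Of all 17687 genes tested, 41.3% were called at an adjusted p below 0.05 and 18.5% were called higher. The members' median log2 fold change was 0.92, against -0.10 over all genes. Since the members were chosen with earlier results known, these shares and medians are descriptions. Unless another method is named, adjusted p-values are from edgeR's quasi-likelihood test, with Benjamini-Hochberg adjustment over every gene tested in that fit.

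Lox encodes the founding lysyl oxidase. Its eWAT level on chow ran from 8.84 through a median of 26.9 to 65.9 CPM, and on HFD from 43.6 through 78.2 to 134 CPM. The pooled ranges overlapped, but those within each genotype did not. C3Hn:C57mt was the highest genotype on both diets. C57n:C3Hmt gave 9.91, 20.0, 23.2 and 13.0 CPM on chow and 46.1, 57.9 and 76.9 CPM on HFD. The mean diet effect on Lox was a log2 fold change of 1.58 ± 0.20 (SE; adjusted p = 3.87e-06).

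Loxl2, a lysyl oxidase-like enzyme active on collagen IV, rose by 1.22 ± 0.24 (adjusted p = 0.00046). Its eWAT levels were 6.46, 23.3 and 35.7 CPM (lowest, median and highest) on chow and 14.9, 43.2 and 86.9 CPM on HFD. Loxl3 rose by 0.30 ± 0.11 (adjusted p = 0.0345), from a median of 9.35 to 10.3 CPM, ranges that mostly overlapped. That call is small and was lost without the 6 libraries with epithelial RNA (0.17, adjusted p = 0.116) and without any of 8 single libraries. Loxl1, whose product is known for elastin, did not pass the test: its log2 fold change was 0.43 (adjusted p = 0.118), with medians of 53.6 and 75.3 CPM. Removing the trend of fold change with GC content and gene length gave Loxl1 a call (0.80, adjusted p = 0.0348).

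P4ha1, the catalytic alpha subunit of prolyl 4-hydroxylase, was called higher at 0.40 ± 0.14 (adjusted p = 0.0284), with medians of 31.1 and 42.2 CPM. This call too was lost without the 6 libraries (0.23, adjusted p = 0.0977). It was also lost after removing the trend with GC content and length (0.20, adjusted p = 0.417).

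Among the fibre organisers, Postn ran from 50.9 through 116 to 327 CPM on chow and from 133 through 347 to 651 CPM on HFD. The 3 HFD libraries of C3Hn:C57mt, at 436, 651 and 608 CPM, include the 2 highest. Postn rose by 1.29 ± 0.18 (adjusted p = 1.23e-05). Fbn1, which encodes fibrillin-1, ran from 53.1 through 308 to 474 CPM on chow and from 322 through 549 to 918 CPM on HFD, so the highest chow libraries passed the lowest HFD ones. Fbn1 rose by 1.12 ± 0.26 (adjusted p = 0.00175) and by 0.79 without the 6 libraries with epithelial RNA. Its 4 lowest chow values, 53.1, 70.7, 89.0 and 89.5 CPM, were all in libraries with epithelial RNA.

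Mmp2, gelatinase A, rose by 0.72 ± 0.19 (adjusted p = 0.00405), with 19.7, 57.7 and 157 CPM on chow and 51.0, 76.9 and 285 CPM on HFD (lowest, median and highest). Timp1, the inducible inhibitor of metalloproteinases, had the widest relative spread of the 10 in eWAT. On chow it lay between 1.39 and 35.8 CPM (median 3.40) and on HFD between 2.94 and 144 CPM (median 14.3). The 3 libraries of C3Hn:C57mt on HFD read 34.8, 86.3 and 144 CPM, whereas the 7 HFD libraries with a C57 nucleus read 2.94 to 14.97 CPM. Timp1 rose by 1.74 ± 0.38 (adjusted p = 0.00106). Tgfb1, the cytokine, did not pass the test, at -0.07 (adjusted p = 0.77; 0.45 and adjusted p = 0.0694 with the GC and length trend removed), with medians of 45.8 CPM on chow and 44.1 CPM on HFD.

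Macrophage markers moved with diet in the same libraries. Of 12 genes on that list 11 were tested and 8 were called higher, with a median of 1.36. Their summed level ran from 320 to 2288 CPM on chow and from 726 to 4364 CPM on HFD, with none at 0. In bulk tissue, more cells of a type and more RNA per cell cannot be told apart. With the mean of these markers as a covariate, Lox (0.84, adjusted p = 0.000493) and Postn (0.65, adjusted p = 0.0101) were still called higher. Timp1 (0.38, adjusted p = 0.562), Fbn1 (0.42, adjusted p = 0.283), Loxl2 (0.49, adjusted p = 0.145) and Mmp2 (0.02, adjusted p = 0.951) were not. In that fit Tgfb1 (-0.67, adjusted p = 0.00135) and Loxl1 (-0.45, adjusted p = 0.0238) were called lower. Fibroblast and progenitor markers summed to a median of 10159 CPM on chow and 9287 CPM on HFD, with 5 of 13 called higher.

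Split by genotype, the eWAT diet effect was called for 5 members in C57n:C57mt (17% of all genes called), 1 in C57n:C3Hmt (7.21%), 4 in C3Hn:C57mt (11.3%) and 0 in C3Hn:C3Hmt (1.67%). Lox was the member called in 3 of the 4, at 1.42 ± 0.38 (adjusted p = 0.0156) in C57n:C57mt, 1.87 ± 0.40 (adjusted p = 0.0158) for C57n:C3Hmt and 1.52 ± 0.40 (adjusted p = 0.0186) in C3Hn:C57mt. Timp1 was called in C57n:C57mt (2.26 ± 0.73) and C3Hn:C57mt (2.32 ± 0.75), as were Postn (1.99 and 1.36) and Loxl2 (1.35 and 1.55). P4ha1 was called in C57n:C57mt at 0.81. Of the 29 fits that left out 1 library, 18 lost the Loxl2 call in C57n:C57mt and 18 the Timp1 call in C3Hn:C57mt. The calls of Timp1 and P4ha1 in C57n:C57mt were lost in 7 each, and that of Loxl2 in C3Hn:C57mt in 8. In C3Hn:C3Hmt 2 members had an unadjusted p below 0.05, as had 3038 of all 17687 genes. DESeq2 called 1 member and 1274 genes there. Without the 6 libraries edgeR called 4 members and 1814 of 16662 genes. Leaving out single libraries moved the per-genotype counts of members to between 0 and 8. The Lox call was lost without chow replicate 3 in C57n:C57mt. In C57n:C3Hmt it was lost without chow replicates 1 or 4 or HFD replicates 2 or 3, and in C3Hn:C57mt without chow replicate 3 or HFD replicates 2 or 3.

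**Figure D2:**
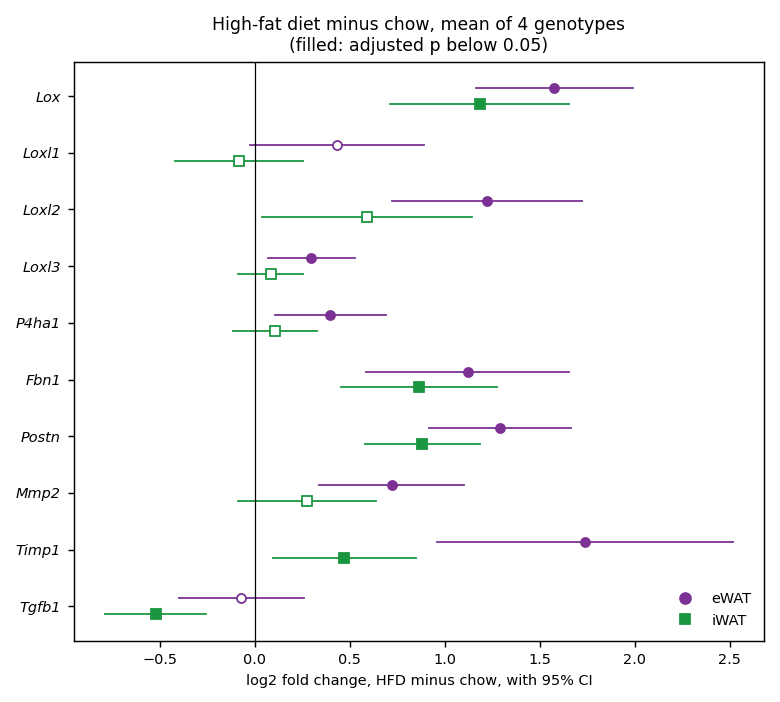
Log2 fold change, HFD minus chow, for each of the 10 genes in eWAT (circles) and iWAT (squares), as the mean of the 4 genotypes; bars are 95% confidence intervals and filled symbols have an adjusted p below 0.05. Lox, Postn and Fbn1 lie above 0 in both depots for the mean, and Tgfb1 lies below 0 in iWAT.

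In iWAT the members went both ways. Lox, Postn, Fbn1 and Timp1 were called higher on HFD and Tgfb1 lower, 5 members in all, against 37.6% of 16884 genes called, 21.4% higher and 16.2% lower. The members' median was 0.38 and that of all genes 0.01.

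Lox ran from 26.2 through 57.1 to 109 CPM on chow and from 19.8 through 128 to 203 CPM on HFD. The single low HFD library, C3Hn:C3Hmt replicate 3 at 19.8 CPM, is the one highest in lymphocyte markers, and its group mates read 140 and 184 CPM. Lox rose by 1.19 ± 0.23 (adjusted p = 0.000255). Loxl2 was not called, at 0.59 (adjusted p = 0.084), but was called without that library (0.70, adjusted p = 0.00623), in which it read 1.98 CPM, and without C57n:C3Hmt HFD replicate 1 (0.67, adjusted p = 0.0252). Loxl3 at 0.09 was not called, nor were Loxl1 at -0.08 and P4ha1 at 0.11, whose signs turned (0.38 and -0.11) with the GC and length trend removed.

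Postn rose by 0.88 ± 0.15 (adjusted p = 5.33e-05), from 68.5, 134 and 216 CPM to 109, 261 and 337 CPM (lowest, median and highest). Fbn1 rose by 0.86 ± 0.20 (adjusted p = 0.00144), from 59.04, 138 and 252 CPM to 57.9, 270 and 375 CPM. The HFD values of both overlapped those on chow. In C57n:C57mt 6 members did not overlap. Fbn1 was among them, with 103, 195, 145 and 108 CPM on chow and 292, 310, 375 and 293 CPM on HFD.

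Mmp2 was not called at 0.28 (adjusted p = 0.22), and was called without C3Hn:C3Hmt HFD replicate 3 (0.36, adjusted p = 0.0272). With sequencing run as a covariate Loxl2 (0.72, adjusted p = 0.00552) and Mmp2 (0.39, adjusted p = 0.0216) were both called. C3Hn:C3Hmt HFD replicate 3 was the only library of its run, so that fit takes its values out too. The covariate separates HFD runs only and leaves the difference between chow and HFD runs in place. Timp1 stayed low in iWAT, between 1.11 and 4.13 CPM on chow and between 1.39 and 5.89 CPM on HFD. Its call of 0.47 ± 0.18 (adjusted p = 0.0442) was lost in 22 of the 30 fits that left out 1 library and without the filter on low counts (0.44, adjusted p = 0.0694).

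Tgfb1 was the only member called lower on HFD in iWAT, at -0.52 ± 0.13 (adjusted p = 0.00271). It ran from 32.2 through 49.1 to 66.4 CPM on chow and from 20.2 through 29.2 to 76.1 CPM on HFD. All but 1 of the 14 HFD libraries lay at or below 34.1 CPM, and the exception was C3Hn:C3Hmt replicate 3. Removing the trend with GC content and length took the value to 0.02 (adjusted p = 0.941); Tgfb1 has the highest GC content of the 10, at 62.5%. With lymphocyte and muscle markers as covariates it was -0.35 (adjusted p = 0.0019). In that fit Lox (0.84), Postn (0.71) and Fbn1 (0.61) were called and Timp1 (0.30, adjusted p = 0.129) was not. Lymphocyte markers had a median sum of 532 CPM on chow and 42.7 CPM on HFD, and 0 of the 12 passed the test, while 12 of 12 were called lower with sequencing run as a covariate. The run fit takes out C3Hn:C3Hmt HFD replicate 3, the library highest in these markers.

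By genotype the iWAT diet effect was called for 4 members in C57n:C57mt (16.7% of all genes) and 3 in C57n:C3Hmt (16.5%). In C3Hn:C3Hmt (4.88%) and C3Hn:C57mt (7.71%) 0 were called by edgeR, and 0 and 0 by DESeq2 (1756 and 2014 genes). At an unadjusted p below 0.05 were 0 and 3 members, against 3787 and 3827 of 16884 genes. Postn (1.46 and 0.89), Fbn1 (1.25 and 1.35) and Tgfb1 (-0.78 and -0.89) were called in both genotypes with a C57 nucleus, and Lox (1.57) in C57n:C57mt. The Postn call in C57n:C3Hmt was lost in 16 of the 30 fits that left out 1 library, with values down to 0.39. In C57n:C57mt those of Fbn1 and Tgfb1 were lost in 7 each. The difference itself, diet by nuclear genome, was called for 0 members in either depot (background 0% in eWAT and 0.717% in iWAT). The lowest adjusted p over its 20 tests was 0.110 for Loxl1 in iWAT, and 4 were below 0.05 unadjusted. These were 1 member in eWAT and 3 in iWAT, against 3627 of 17687 and 4699 of 16884 genes. Leaving out 1 library moved the number of genes called from 121 to between 9 and 2223 in iWAT, and from 0 to as many as 719 in eWAT. DESeq2 called 1508 and 997 genes.

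The difference between the depots' diet effects was likewise called for 0 of 10 members by edgeR (0.0437% of genes) and by DESeq2 (653 of 18325 genes). An unadjusted p below 0.05 was found for 2 members, and for 2887 genes. The largest was Timp1 at 1.28 (adjusted p = 0.126). The edgeR fit that compared the depots had no animal term, so depots of the same animal were treated as independent. Within a diet some members were called between the depots. On chow eWAT had more Timp1 (1.31 ± 0.29, adjusted p = 0.000451) and Fbn1 (0.94 ± 0.22, adjusted p = 0.000871) than iWAT. It had less Mmp2 (-1.40 ± 0.18, adjusted p = 6.61e-08) and Lox (-1.08 ± 0.21, adjusted p = 9.65e-05). These are 4 members called, a share not far above the 33.3% of all genes.

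On HFD 6 members were called between the depots, against 23% of genes. Timp1 (2.59 ± 0.32, adjusted p = 3.91e-08), Fbn1 (1.23 ± 0.24), Postn (0.57 ± 0.17) and Tgfb1 (0.48 ± 0.15) were higher in eWAT, and Mmp2 (-0.94 ± 0.19) and Lox (-0.67 ± 0.22) lower. In limma voom, 8 members were called on HFD with the animal as a block and 6 with no animal term. Of 18325 genes, 4439 and 3080 were called in those fits. On chow 4 members were called either way, against 5405 and 4546 genes. Postn lost its call when replicate 3 of every group was left out (0.24, adjusted p = 0.437), Lox without replicates 1, 2 or 4 (-0.53 to -0.69) and Tgfb1 without replicates 1 or 4.

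In muscle, on chow only, all 10 members differed from eWAT and 9 from iWAT, not far above the 82.6% and 80.4% of all genes that did. That fit, too, had no animal term. P4ha1 was higher in muscle than in either, by 0.98 ± 0.13 against eWAT (adjusted p = 1.23e-08) and 0.99 ± 0.13 against iWAT (adjusted p = 6.22e-09). Against iWAT 4 members did not overlap. P4ha1 was among them: muscle read 51.2, 64.6 and 85.1 CPM (lowest, median and highest) and iWAT 20.8, 32.7 and 46.0 CPM. Mmp2 in muscle was higher than in eWAT (0.65 ± 0.16) and lower than in iWAT (-0.76 ± 0.16). Postn was lower by 2.93 and 2.80 on the log2 scale and Tgfb1 by 2.12 in both, with no overlap of Postn or Tgfb1 between muscle and eWAT. Timp1, lower than in eWAT by 1.77, was not called against iWAT (-0.48). The median of all genes was -0.51 against eWAT and -0.32 against iWAT.

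In eWAT on chow, libraries with a C57 nucleus had less RNA of 4 members than those with a C3H nucleus, against 15.1% of genes called and 7.11% called lower. Mmp2 read 19.7, 47.7 and 58.5 CPM with a C57 nucleus and 47.4, 105 and 157 CPM with a C3H nucleus (lowest, median and highest; 8 and 7 libraries). The difference was -1.36 ± 0.26 (adjusted p = 0.00114). Postn differed by -1.18 ± 0.25 (adjusted p = 0.00291), P4ha1 by -0.79 ± 0.20 (adjusted p = 0.0106) and Timp1 by -1.98 ± 0.52 (adjusted p = 0.0147). The P4ha1 call was lost without C3Hn:C3Hmt chow replicate 3 (-0.61, adjusted p = 0.058) and the Timp1 call without replicate 2 of that group (-1.43, adjusted p = 0.092).

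Macrophage markers were lower with the C57 nucleus too, at a median sum of 780 against 1537 CPM, and 4 of 11 were called lower. With them as a covariate Mmp2 was still called (-0.74, adjusted p = 0.00542). Postn (-0.57, adjusted p = 0.105), P4ha1 (-0.52, adjusted p = 0.103) and Timp1 (-0.31, adjusted p = 0.868) were not. Collagens followed the same direction, with 8 of 16 called lower and a median of -0.80, against 0.06 for all genes.

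In eWAT on HFD 2 members were called, both lower with the C57 nucleus (13.2% of genes called, 7.59% lower). Mmp2, alone of the members, did not overlap: 51.0, 64.7 and 74.9 CPM with a C57 nucleus and 79.0, 179 and 285 CPM with a C3H nucleus, 7 libraries each. The share of all genes that did not was not computed. Its difference was -1.56 ± 0.27 (adjusted p = 0.000399), and that of Timp1 was -2.41 ± 0.56 (adjusted p = 0.00515). With macrophage markers as a covariate both were still called, at -1.03 (adjusted p = 0.000153) and -1.44 (adjusted p = 0.0211). DESeq2 called 4 members and 3231 of 17687 genes. Without the 6 libraries with epithelial RNA, edgeR called 6 members and 4917 of 16662 genes.

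In iWAT on chow 2 members were called, both lower with the C57 nucleus, against 11.7% of genes called and 6.01% called lower. Postn, alone of the members, did not overlap, at 68.5, 85.4 and 123 CPM with a C57 nucleus and 144, 176 and 216 CPM with a C3H nucleus, 8 libraries each. The share of all genes that did not was not computed. Postn differed by -0.92 ± 0.20 (adjusted p = 0.00286). Mmp2 differed by -0.84 ± 0.24 (adjusted p = 0.0224), a call lost without any of 3 single libraries: C57n:C57mt chow replicate 1, or C57n:C3Hmt chow replicates 2 or 4. Of 16 collagens 7 were called lower, with a median of -0.78. In iWAT on HFD 0 members were called by edgeR (16.3% of genes) or DESeq2 (3504 of 16884 genes). An unadjusted p below 0.05 was found for 1 member, and for 5334 of 16884 genes. With lymphocyte and muscle markers as covariates 3 of the 10 members were called, and 4765 of 16884 genes, a similar share.

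In muscle 6 members differed by nuclear genome, against 33.6% of genes, and they went in both directions. The lysyl oxidase-like genes Loxl1 (0.32 ± 0.11), Loxl2 (0.46 ± 0.14) and Loxl3 (0.44 ± 0.14) were higher with a C57 nucleus. Timp1 (-1.02 ± 0.25, adjusted p = 0.00489), Postn (-0.59 ± 0.19) and Mmp2 (-0.22 ± 0.08) were lower. Mmp2 read 79.2 to 112 CPM with a C57 nucleus and 94.0 to 130 CPM with a C3H nucleus, and its call was lost in 10 of the 16 fits that left out 1 library, as was that of Loxl1. Postn lost its call in 6 of them and Loxl3 in 4. Mmp2 and Postn were thus called lower with the C57 nucleus in all 3 tissues on chow.

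**Figure D3:**
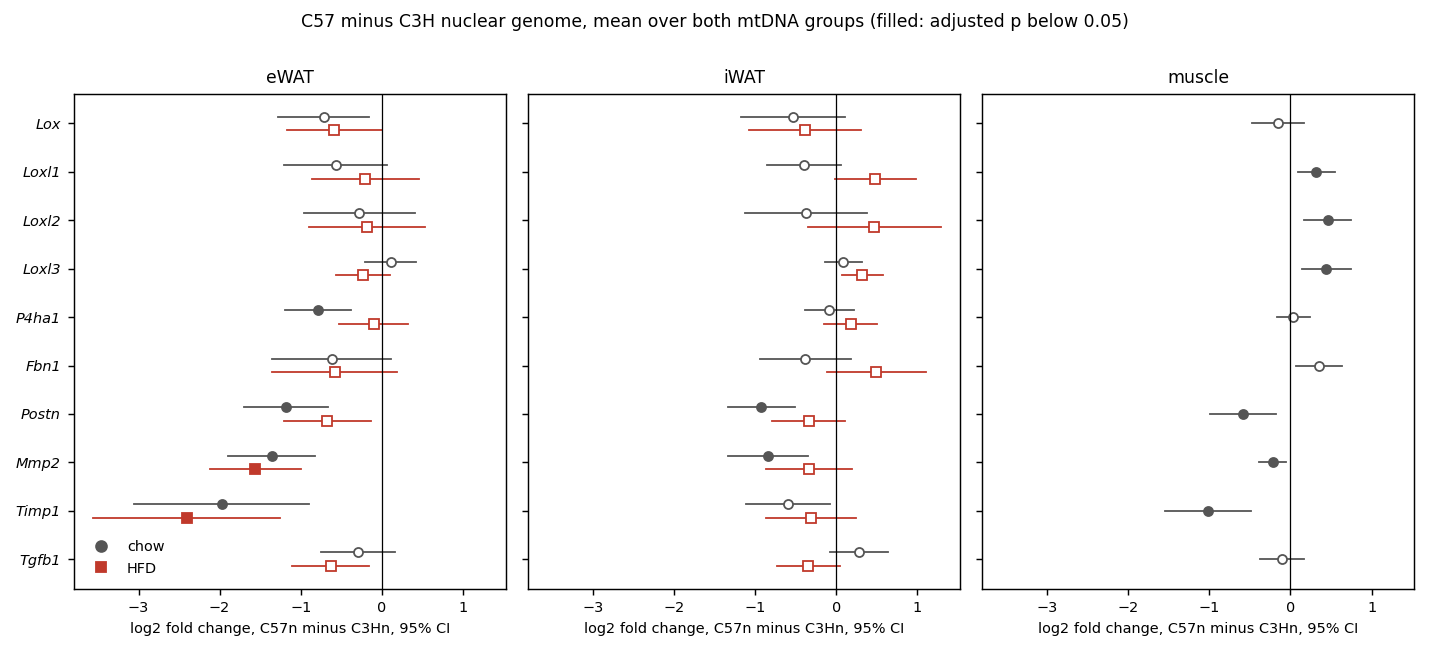
Log2 difference, C57 minus C3H nuclear genome, for each of the 10 genes in eWAT and iWAT on each diet and in muscle on chow; bars are 95% confidence intervals and filled symbols have an adjusted p below 0.05. Mmp2 lies below 0 in eWAT on both diets (-1.36 and -1.56), and Loxl1, Loxl2 and Loxl3 lie above 0 in muscle.

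Exchange of the mitochondrial genome within a nuclear genome was compared 10 times, giving 100 tests on the members. With edgeR 0 were called, 7 had an unadjusted p below 0.05, and DESeq2 called 1. Of the 7, 5 lay in eWAT on HFD with a C3H nucleus, where 2252 of 17687 genes had such a p. There all 10 members were positive (exchange minus parental), with a median of 0.65 against -0.04 over all genes. In eWAT on HFD with a C57 nucleus 1 had such a p and 0 of 10 were positive. Over all 100 tests the values ran from -1.07 to 1.94. The lowest adjusted p was 0.290, for Timp1 in eWAT on HFD between C3Hn:C57mt (34.8, 86.3 and 144 CPM) and C3Hn:C3Hmt (4.79, 15.4, 56.0 and 16.8 CPM). At these group sizes the test leaves wide intervals: the 95% bounds reached 3.49 in that comparison and 1.05 in muscle with a C57 nucleus. Of all genes, 0.0113% were called in that comparison, 0.00728% in muscle with a C3H nucleus and 0% in the others. In eWAT DESeq2 called more genes: 494 in the comparison with the Timp1 values, 452 between the same genotypes on chow, and 476 with a C57 nucleus on chow. Without the 6 libraries with epithelial RNA edgeR called 387 genes in the first of these. Diet by mitochondrial genome gave 0 calls in 40 tests by edgeR, with 2 below 0.05 unadjusted, a lowest adjusted p of 0.508 and 1 call by DESeq2. The 2 were 1 member in each depot with a C3H nucleus, where 1247 of 17687 genes in eWAT and 1089 of 16884 in iWAT had such a p.

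The other genes of the matrix were counted on lists that exclude the 10 members. In eWAT on HFD 10 of 24 genes of collagen modification and cross-linking were called higher and 0 lower (median 0.27). They included Plod2, the lysyl hydroxylase of collagen telopeptides (1.22), Leprel1, a collagen prolyl 3-hydroxylase (0.77), and Bmp1, which trims procollagen (0.68). Collagens gave 9 higher of 16 (median 0.68), with Col8a1 at 1.56, Col6a3 at 0.90 and Col1a2 at 0.82. Matricellular genes gave 10 higher of 18 (median 0.46), among them the tenascin Tnc (1.29), Fn1, fibronectin (1.18), and Thbs2 (1.14). Metalloproteinases gave 8 higher and 1 lower of 18 (median 0.62), with Mmp12, the macrophage elastase, at 2.99, Mmp3 at 1.68 and Mmp13 at 1.65. With macrophage markers as a covariate, 2 genes of collagen modification were called higher and 2 lower. In the same fit 2 collagens, 1 matricellular gene and 0 metalloproteinases were called higher.

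Elastic-fibre genes in eWAT gave 3 higher and 1 lower of 16 (median 0.19), a share called higher near the 18.5% of all genes. With macrophage markers as a covariate 0 were called higher and 2 lower, and without the 6 libraries 5 higher and 2 lower. Mfap5 rose by 0.88 and Fbln2 by 0.79, and Ltbp1, a latent TGF-beta binding protein, by 0.41. Of 7 other protease inhibitors 3 rose and 1 fell, with Serpine2 at 0.52, Timp2 at 0.47 and Reck at 0.45. Of 23 genes of TGF-beta signalling 9 rose and 1 fell (median 0.19). The receptor Tgfbr1 was at 0.71 and the integrin subunit Itgav at 0.78. Myofibroblast and smooth muscle markers went down, 4 of 6 lower with a median of -1.54, and Cnn1 at -2.88. The epithelial markers, 10 of 13 lower with a median of -3.07, moved in the same comparison. Without the 6 libraries with epithelial RNA, 1 of the myofibroblast and 2 of the epithelial markers were called lower.

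In iWAT the background was 21.4% of genes called higher and 16.2% lower, and no test compared the depots list by list. Collagen modification had 3 higher and 1 lower of 22 (median 0.09), with Plod2 at 0.80, Tll1 at 0.82 and Adamts14 at -0.36. Collagens had 5 higher of 16 (median 0.33), among them Col8a1 at 0.75 and Col3a1 at 0.57. Matricellular genes had 4 higher of 18 (median 0.34), including Ctgf, a TGF-beta target, at 0.72 and Thbs1 at 0.89. Metalloproteinases had 5 higher and 1 lower of 17, with Mmp12 at 1.33 and the aggrecanase Adamts5 at 1.05. Elastic-fibre genes had 4 higher and 3 lower of 16, with Fbln5 at 0.62 and Ltbp2 at -0.87. TGF-beta signalling had 8 higher and 3 lower of 23, with Itgav at 0.64, Tgfbr1 at 0.52 and Smad4 at 0.34, while Tgfb1 itself was called lower. The run covariate also takes out C3Hn:C3Hmt HFD replicate 3, the only library of its run. With run as a covariate the numbers called higher were 6 for collagen modification, 9 for collagens, 8 for matricellular and 7 for elastic-fibre genes. With lymphocyte and muscle markers as covariates they were 2, 2, 3 and 2, and 3 genes of collagen modification were called lower. With the GC and length trend removed, collagen modification had 9 higher, while matricellular genes and metalloproteinases had 2 each.

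Within groups, 9 of the 10 members were positively correlated with each other in both depots, and Tgfb1 had opposite signs in eWAT and iWAT. After subtracting each group's mean log2 CPM, Mmp2 correlated with Lox at Pearson r = 0.94 in eWAT (29 libraries) and 0.87 in iWAT (30 libraries). Its correlation with Loxl1 was 0.93 and 0.87. Tgfb1 correlated with Lox at 0.60 in eWAT and at -0.79 in iWAT, and with Timp1 at 0.85 and -0.43. Tgfb1 also correlated with the lymphocyte markers in iWAT (0.83) and with the macrophage markers in eWAT (0.81), while Loxl1 correlated with the fibroblast markers at 0.92 and 0.87. In eWAT Loxl1 also correlated with the macrophage markers, at 0.91, and with the myofibroblast markers, at -0.91. Lox (0.85 and -0.81) and Mmp2 (0.86 and -0.85) did likewise. These are descriptions over libraries that share depth, tissue make-up and, in iWAT, the library high in lymphocyte markers. In eWAT they include the 6 libraries with epithelial RNA. There the epithelial markers correlated negatively with every member, from -0.74 (P4ha1) to -0.06 (Timp1).

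**Figure D4:**
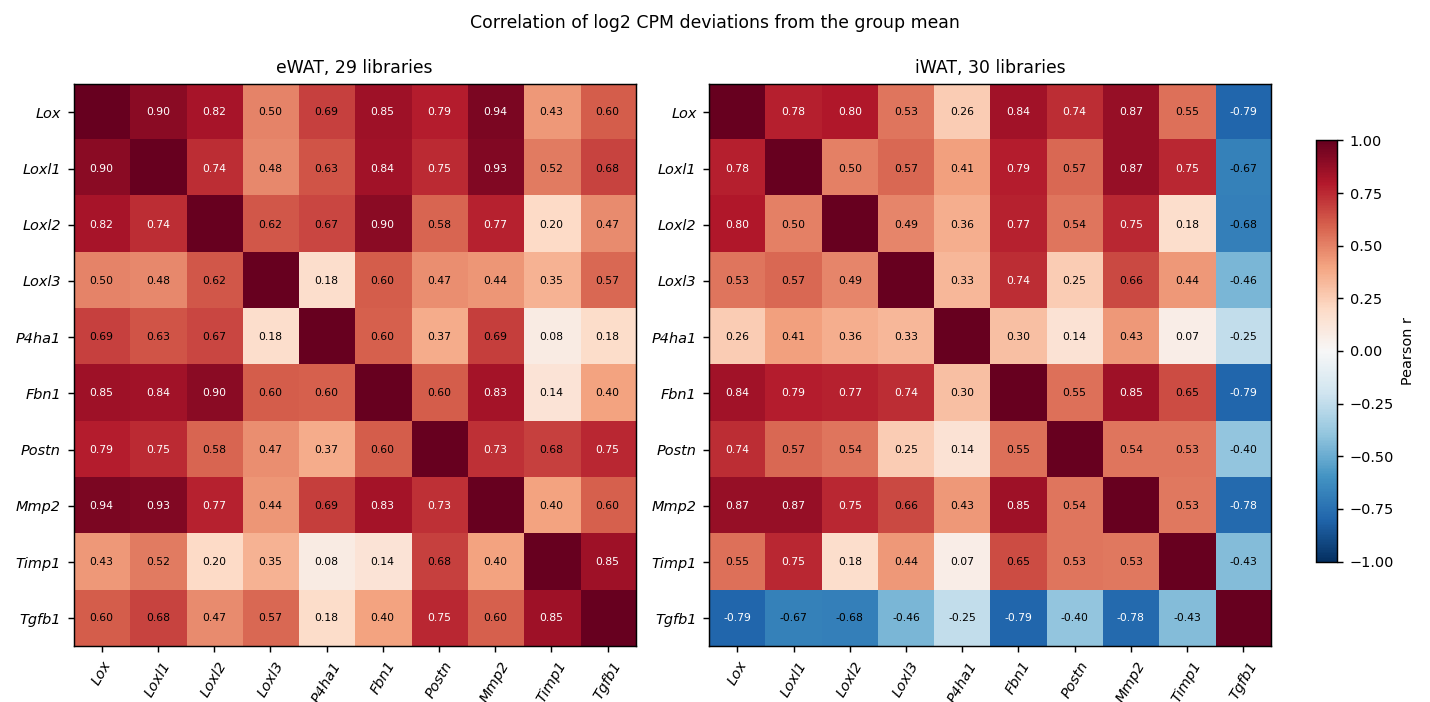
Pearson correlation between the 10 genes over libraries after subtracting each group's mean log2 CPM, in eWAT (29 libraries) and iWAT (30 libraries); colour gives r from -1 to 1. Tgfb1 is positively correlated with Lox in eWAT (0.60) and negatively in iWAT (-0.79).

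Over all 59 fat libraries and 18315 genes, the genes most like a member were listed by Pearson r of the same deviations from the group mean. Lox was most like the fibulin Fbln2 (0.938), Col5a2 (0.927) and Wwtr1 (0.916). Fbn1 was most like Fn1 (0.945), and Mmp2 most like Fbln2 (0.919). Timp1 was most like Cstb (0.904), and Tgfb1 most like Arhgap9 (0.919). Postn had the weakest nearest match of these, Gmfb at 0.852.

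Gene positions are those of mouse build mm9, the build of the deposited counts. Loxl1 lies at chr9:58135530-58161019 and Loxl2 at chr14:70008978-70095640. Postn lies at chr3:54165031-54194961, Fbn1 at chr2:125126330-125333729 and P4ha1 at chr10:58786044-58836052. Mmp2 lies at chr8:95351227-95377316, Tgfb1 at chr7:26472021-26490096 and Timp1 at chrX:20447292-20451861, inside the Syn1 gene on the opposite strand with no shared exon. Exons of Loxl3 (chr6:82984167-83002556) share 535 bases with Htra2 on the opposite strand, and those of Fbn1 share 2442 bases with Gm9913. Whether counting used strand is not given in the sources used here, so reads of those overlaps cannot be assigned.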

How the data were processed

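The deposited values are expected counts per gene that the authors estimated with RSEM on mouse build mm9, per the submitters' processing notes, which also name DESeq2 1.10.1. The deposited summary tables also give a percent G+C of aligned transcriptome bases for each library, used here only as a description: group medians ran from 48.2% in iWAT on HFD to 49.4% in eWAT and muscle on chow. The aligner is not given in the sources used here beyond a proprietary mapping algorithm, per the labels' protocols.

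Expected counts were rounded and joined over the 22423 chow and 21983 HFD genes. Each tissue was fitted once with edgeR 4.0.16 (R 4.3.3): TMM scaling, filterByExpr with a minimum count of 10 and minimum total of 15, quasi-likelihood F test, and Benjamini-Hochberg adjustment per comparison, called below 0.05. Fat depots were compared in a joint fit. CPM used TMM factors over all 75 libraries. DESeq2 1.42.0 and limma 3.58.1 (voom) served as alternatives, and the code was tested on simulated data. Groups came from the labels. The titles give animal numbers, so p-values of the fits within a tissue measure spread between animals. The edgeR joint fits, of the fat depots and of the chow tissues, had no animal term, although 20 animals gave both depots. Their p-values treat tissues of the same animal as independent. Replicate numbers were given in accession order and pair nothing. The animal numbers in the titles pair the depots, and the animal block had a consensus correlation of 0.288. The 10 members and all lists were chosen with earlier results of these data known. Besides members, the text names at most the 3 called genes with the smallest adjusted p of each list and depot. Authors' normalized and isoform tables were not used here.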

Additional observations from a re-analysis of the deposited data

Results flagged for a closer look

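A single library stood far from the others of its group, by Dixon's criterion at 95%, in 13 of the 150 sets of 4 libraries tested (8.67%). Chance alone gives about 1 in 20. Of these, 4 fall in 1 eWAT library, C57n:C57mt chow replicate 3, which is among the 6 with epithelial RNA: Fbn1 read 53.1 CPM (others 310 to 356), Postn 50.9 (109 to 121), Lox 8.84 (31.4 to 35.04) and Loxl2 6.46 CPM (26.4 to 27.4). Another 2 fall in such libraries: Loxl1 at 18.2 CPM in C3Hn:C57mt chow replicate 2 (others 95.2 to 109), and Lox at 43.6 CPM in C3Hn:C3Hmt HFD replicate 1 (79.5 to 85.8).

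In iWAT, C57n:C3Hmt chow replicate 1 was high for both Lox (109 CPM, others 26.2 to 38.9) and Fbn1 (209 CPM, others 59.04 to 84.04). Lox read 67.0 CPM in C57n:C57mt chow replicate 2 (others 33.5 to 38.2). P4ha1 read 42.5 CPM in C57n:C3Hmt chow replicate 4 (others 29.3 to 31.4) and 41.2 CPM in C57n:C3Hmt HFD replicate 2 (others 34.0 to 34.9). Timp1 read 2.80 CPM in C57n:C57mt HFD replicate 3 (others 3.42 to 3.51). In muscle, Loxl1 read 22.1 CPM in C57n:C57mt chow replicate 2 (others 32.4 to 33.8). Groups of 3, such as C3Hn:C3Hmt on HFD in iWAT, were not tested this way.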

How the results depend on the processing

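Under alternatives other than leaving out 1 library, 374 of 428 fold changes of called or described members kept direction and side of the threshold, 44 lost the call, 4 gained one and 6 turned. Over 83 fits without 1 library (in the joint fits, without 1 replicate number of every group), 1351 of 1536 fold changes kept both, 181 lost the call, 3 gained one and 1 turned. The causes of these changes were not tested. The choices added after seeing the data are the omission of the 6 epithelial libraries outside the eWAT diet effect, and the marker covariates for the nuclear comparisons.

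With macrophage markers as a covariate, the member counts in eWAT went from 8 to 4 (mean diet effect), 5 to 1 (C57n:C57mt), 1 to 2 (C57n:C3Hmt), 0 to 2 (C3Hn:C3Hmt), 4 to 1 (C3Hn:C57mt) and 4 to 1 (C57n minus C3Hn, chow). Of 17687 genes, 4309, 896, 552, 1742, 2581 and 1137 were called there, in the same order. With the GC and length trend removed, the eWAT diet counts were 2 in C57n:C57mt, 0 in C57n:C3Hmt and 1 in C3Hn:C57mt, and the iWAT counts 1 in C57n:C57mt (from 4) and 0 in C57n:C3Hmt (from 3). Of 14650 genes in eWAT 926, 0 and 163 were called, and of 13955 in iWAT 268 and 298. DESeq2 gave 2 in eWAT C57n:C3Hmt, 1 in C3Hn:C3Hmt, 7 in C3Hn:C57mt, 4 for C57n minus C3Hn on HFD, and 1 for each of the mitochondrial and diet-by-mitochondrial comparisons with a C3H nucleus in eWAT (chow for the former). Genes called, in the same order, were 3227, 1274, 3431, 3231, 452 and 371 of 17687. Without the filter eWAT C3Hn:C57mt had 2, against 1691 of 21586 genes. Without the 6 epithelial libraries eWAT C3Hn:C3Hmt had 4 and C57n minus C3Hn on HFD 6, against 1814 and 4917 of 16662 genes. With run as a covariate eWAT C57n:C3Hmt had 0, iWAT C57n:C3Hmt 5, iWAT C3Hn:C57mt 2 and C57n minus C3Hn in iWAT on HFD 1. Genes called were 91 of 17687 in eWAT, and 4100, 2417 and 2858 of 16884 in iWAT. With lymphocyte and muscle covariates iWAT C57n:C57mt had 2, C3Hn:C57mt 1, C57n minus C3Hn on HFD 3 and diet by nuclear genome 1. Those fits called 2066, 2135, 4765 and 1837 of 16884 genes.

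Signs that turned were Tgfb1 in eWAT on HFD (0.45, GC and length), Loxl1 in eWAT (-0.45, macrophage covariate), and in iWAT Tgfb1 (0.017), P4ha1 (-0.11) and Loxl1 (0.38) with GC and length, and Loxl1 also with run (0.0035) and without C57n:C3Hmt chow replicate 1 (0.011). Over all single-library fits that Loxl1 value ran from -0.156 to 0.011.

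Leaving out 1 library gave these ranges of members called on HFD against chow: eWAT mean 6 to 8, C57n:C57mt 1 to 5, C57n:C3Hmt 0 to 2, C3Hn:C3Hmt 0 to 1, C3Hn:C57mt 0 to 8; iWAT mean 4 to 7, C57n:C57mt 1 to 5, C57n:C3Hmt 0 to 6, C3Hn:C3Hmt 0 to 1, C3Hn:C57mt 0 to 2. For C57n minus C3Hn they were 3 to 6 in eWAT on chow, 2 to 4 on HFD, 1 to 5 in iWAT on chow, 0 to 1 on HFD and 3 to 6 in muscle, and for diet by nuclear genome in iWAT 0 to 2. The mean eWAT call of Loxl3 was lost without C3Hn:C57mt chow replicate 4 or HFD replicate 3, C3Hn:C3Hmt chow replicates 1 or 3 or HFD replicate 2, C57n:C57mt HFD replicate 4, or C57n:C3Hmt HFD replicates 1 or 2. The mean eWAT call of P4ha1 was lost without C3Hn:C3Hmt chow replicates 1 or 2 or C3Hn:C57mt HFD replicate 2.

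Genes called fell from 7309 to 3387 (GC and length) or 4309 (macrophage covariate) for the eWAT diet effect, and from 6348 to 2048 (GC and length) in iWAT. The GC and length fits tested only genes matched to a length, 14650 against 17687 in eWAT and 13955 against 16884 in iWAT. For C57n minus C3Hn they went from 2672 to 1137 (macrophage covariate) in eWAT on chow and from 2332 to 4917 (without the 6 libraries) or 4219 (macrophage covariate) on HFD. In iWAT they went from 1977 to 3003 (run) on chow and from 2752 to 4765 (lymphocyte and muscle covariates) on HFD. The depot-by-diet count of 8 became 653 with DESeq2 and 617 with run.

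With the animal as a replicate block (limma voom), depot by diet had 31 genes and 0 members, eWAT minus iWAT had 4 members on chow and 8 on HFD, and muscle differed from eWAT in 10 members and from iWAT in 9. Genes called were 5405 and 4439 of 18325 between the depots, and 14019 and 14159 of 18358 for muscle. The block ended no call of a member. Without an animal term in voom, Lox in eWAT minus iWAT on HFD was -0.55 (adjusted p = 0.125).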
